A study of Homo sapiens with 2 samples.

Results

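The nuclear genes of the 5 enzyme complexes of oxidative phosphorylation were followed in K562 cells in which a short hairpin RNA against BMI1 had been induced. K562 is an established human chronic myeloid leukaemia line of erythroid character, and BMI1 is a subunit of a Polycomb complex that represses transcription. Both cultures carried the inducible hairpin. The induced culture was kept with doxycycline for 96 h and the control without it, each was measured once on a whole-transcript Affymetrix array, and the control's incubation time is not given in the labels. Doxycycline is a tetracycline antibiotic, a class that is known to bind mitochondrial ribosomes, and 0 samples received it without the hairpin, so the agent, the hairpin and any difference in time or handling cannot be told apart.

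Members were genes whose probe set carried 1 platform symbol for a subunit of complexes I to V, in old or new nomenclature. Pseudogenes and NDUFAF assembly factors were left out. The rule found 84 of the 18417 genes measured by probe sets with 1 symbol, namely 34 in complex I, 3 in complex II, 8 in complex III, 19 in complex IV and 20 in complex V. NDUFA4 and NDUFA4L2, listed by the annotation under their newer names COXFA4 and COXFA4L2, were placed in complex IV, where NDUFA4 is known to sit. NDUFS5, NDUFC2, UQCRHL and ATP5F1E had only probe sets with several symbols, and SDHB and UQCRFS1 were not analysed here. The subunits encoded by mitochondrial DNA were not analysed here (0 measured). The values were log2 values made by robust multi-array averaging (RMA), and every difference below is the doxycycline value minus the value without doxycycline on that scale. A gene was compared when its higher value reached 6, a floor that 81 of the 84 members passed. COX6B2, COX7B2 and COX8C were below it in both samples, and ATP5MGL passed only through the doxycycline sample. With 1 sample in each group there was no replicate error, and no difference could be tested.

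The respiratory chain passes electrons from NADH through complex I, or from succinate through complex II, to coenzyme Q, and on through complex III and cytochrome c to complex IV, which reduces oxygen. Complexes I, III and IV pump protons across the inner mitochondrial membrane, and complex V uses the gradient to make ATP. Mitochondrial DNA encodes cytochrome b of complex III, the catalytic subunits of complex IV, the membrane core of complex I and part of the membrane sector of complex V. Nuclear genes supply the remaining catalytic subunits, the small supernumerary subunits around them and all of complex II. Many of these nuclear genes are known to be bound near their start by NRF1, by ETS-family factors such as GABPA, and by YY1.

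The promoters of a few members are shown because the genes are known to share these regulators. Whether the regulators had a part in the differences below was not tested. Each stretch covers 250 bases before to 50 bases after the gene's start, is written 5′ to 3′ on the gene's strand, and comes from RefSeq on GRCh38.p14. Capitals mark matches, on either strand, of a 7-letter core for NRF1 (GCATGCG), ETS (CCGGAAG) or YY1 (AGATGGC). COX7B is the member with the largest difference. The other 4 are the members with promoters at hand that matched the most motifs. Among equals, those with the most matches came first, with further ties settled by symbol. A stretch that reads as the NRF1 core on both strands (CGCATGCG) counted as 2 matches. These 4 were picked for their matches, after stretches chosen by the members' differences and by core subunits had shown few, and they are not typical. At least 2 of the motifs stood in 7 of the 70 member promoters at hand (10%), against 3.31% of promoters of genes past the floor. The windows are chrX:77899218-77899517 (plus strand) for COX7B, chr21:25735005-25735304 (minus strand) for ATP5PF, chr11:112086623-112086922 (plus strand) for SDHD, chr12:120437863-120438162 (plus strand) for COX6A1 and chr4:674227-674526 (minus strand) for ATP5ME.
COX7B: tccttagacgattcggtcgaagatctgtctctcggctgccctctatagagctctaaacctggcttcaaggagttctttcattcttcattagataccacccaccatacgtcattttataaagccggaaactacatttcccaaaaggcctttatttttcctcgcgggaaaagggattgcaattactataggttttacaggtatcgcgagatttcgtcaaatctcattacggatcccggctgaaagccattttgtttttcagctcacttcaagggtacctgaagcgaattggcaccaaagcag
ATP5PF: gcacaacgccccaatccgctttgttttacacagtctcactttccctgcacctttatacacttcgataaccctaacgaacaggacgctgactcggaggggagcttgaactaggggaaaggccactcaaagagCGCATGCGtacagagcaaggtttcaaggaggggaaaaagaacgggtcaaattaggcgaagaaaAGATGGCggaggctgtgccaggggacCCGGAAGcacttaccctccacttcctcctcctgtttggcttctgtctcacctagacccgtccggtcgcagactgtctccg
SDHD: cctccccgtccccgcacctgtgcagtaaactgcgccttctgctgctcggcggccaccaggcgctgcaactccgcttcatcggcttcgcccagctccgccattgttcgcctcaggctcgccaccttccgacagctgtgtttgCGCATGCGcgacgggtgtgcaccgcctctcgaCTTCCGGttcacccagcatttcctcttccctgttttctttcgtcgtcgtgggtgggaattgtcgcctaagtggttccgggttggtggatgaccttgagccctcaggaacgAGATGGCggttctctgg
COX6A1: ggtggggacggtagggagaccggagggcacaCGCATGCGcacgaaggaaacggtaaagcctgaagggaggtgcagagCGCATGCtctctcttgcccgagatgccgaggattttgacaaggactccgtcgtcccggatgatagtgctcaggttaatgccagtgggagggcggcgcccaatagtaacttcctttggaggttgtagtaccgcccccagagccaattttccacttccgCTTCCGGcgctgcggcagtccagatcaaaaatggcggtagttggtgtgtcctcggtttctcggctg
ATP5ME: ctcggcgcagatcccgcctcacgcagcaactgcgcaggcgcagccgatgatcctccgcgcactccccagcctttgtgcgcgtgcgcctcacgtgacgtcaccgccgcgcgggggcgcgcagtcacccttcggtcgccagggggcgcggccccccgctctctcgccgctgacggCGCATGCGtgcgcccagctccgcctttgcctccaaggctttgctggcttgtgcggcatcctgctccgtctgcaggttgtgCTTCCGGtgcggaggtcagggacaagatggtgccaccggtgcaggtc

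RefSeq promoters were at hand for 70 of the 84 members. The NRF1 letters stood in 12 of the 70 (17.1%), against 4.13% of 27305 promoters of all genes and 6.01% of the 10603 promoters whose genes passed the floor. The ETS letters stood in 19 (27.1%), against 10.7% of all promoters and 17.8% of those past the floor. The YY1 letters stood in 11 (15.7%), against 5.61% of all promoters and 7.05% of those past the floor. Matches of at least 1 of the 3 motifs stood in 33 of the 70 (47.1%), against 27.4% of promoters of genes past the floor, and matches of different motifs overlapped in 0 member promoters. In the stretches above, ATP5PF and SDHD held all 3 motifs, COX6A1 and ATP5ME held NRF1 and ETS letters, and COX7B held no exact match of the 3 cores within this window. Looser forms of the motifs were not searched for. Members with and without a match had similar medians, which were not tested. The median difference was -0.13 for the 12 members with the NRF1 letters and -0.11 for those without, -0.13 with and -0.11 without the ETS letters, and -0.13 with and -0.11 without the YY1 letters.

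The targeted transcript matched the labels. The probe set that names BMI1 (and its COMMD3 read-through) gave 10.00 in the induced culture and 10.84 in the control culture, differing by -0.84, which left 55.9% of the control signal. Across all 33297 probe sets the medians were 6.77 with doxycycline and 6.78 without. Of 9 markers of erythroid or CML cells, 8 were measured and all 8 were past the floor, from 7.30 to 13.03 with doxycycline and from 7.39 to 13.34 without. Their log2 values summed to 79.3 with doxycycline and 80.9 without. All 8 were lower with doxycycline, by a median of -0.15, with the embryonic globin gene HBZ at -0.44 and the erythroid transcription factor gene KLF1 at -0.28. Of 24 measured markers of T, B, myeloid, fibroblast, epithelial and muscle cells, 7 were below the floor, among them CD3E, MS4A1, MPO, DCN and CDH1, and the 24 summed to 167.4 with doxycycline and 168.2 without. Of the 17 past it, 10 were lower and 7 higher, between -0.33 and 0.28. The 4 myeloid markers past the floor had a median of 0.10, with LYZ at 8.999 with doxycycline and 8.716 without (0.28), CSF1R at 0.20, CD14 at 0.0059 and ELANE at -0.33. Of the 4 fibroblast markers past it, 3 were higher, with a median of 0.03, and the epithelial markers KRT8, KRT18 and EPCAM lay between -0.10 and -0.03. These epithelial markers were well past the floor. KRT8 stood at 11.77 with doxycycline and 11.82 without, KRT18 at 11.52 with doxycycline and 11.63 without, and EPCAM at 8.88 with doxycycline and 8.91 without. The part of these marker differences in the results below was not tested. In a bulk culture, fewer cells of a kind and less RNA per cell cannot be told apart.

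Most respiratory chain genes were slightly lower in the doxycycline sample, and few differed by much. Of the 81 members past the floor, 64 (79.0%) had a difference below 0, against 48.8% of the 13471 genes compared, 16 were higher and 1 was equal. The median difference was -0.11, a 1.08-fold difference, against 0.00177 over all genes compared. At least 1.2-fold lower were 9 members (11.1%), against 4.05% of all genes, and at least 1.2-fold higher was 1 member, DMAC2L, against 6.04% of all genes. COX7B alone was at least 1.5-fold lower, a size reached by 0.111% of all genes, and 0 members were at least 1.5-fold higher, against 0.364% of all genes. For scale, the robust SD of the difference (from the median absolute deviation, scaled to match a normal SD) over all genes was 0.15. Among genes of like level this SD was between 0.10 and 0.25 at the members' levels, and 9 members lay at least 2 of these SDs below 0, against 2.12% of all genes. On the higher side 0 members lay that far out, against 4.08% of all genes.

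**Figure D1:**
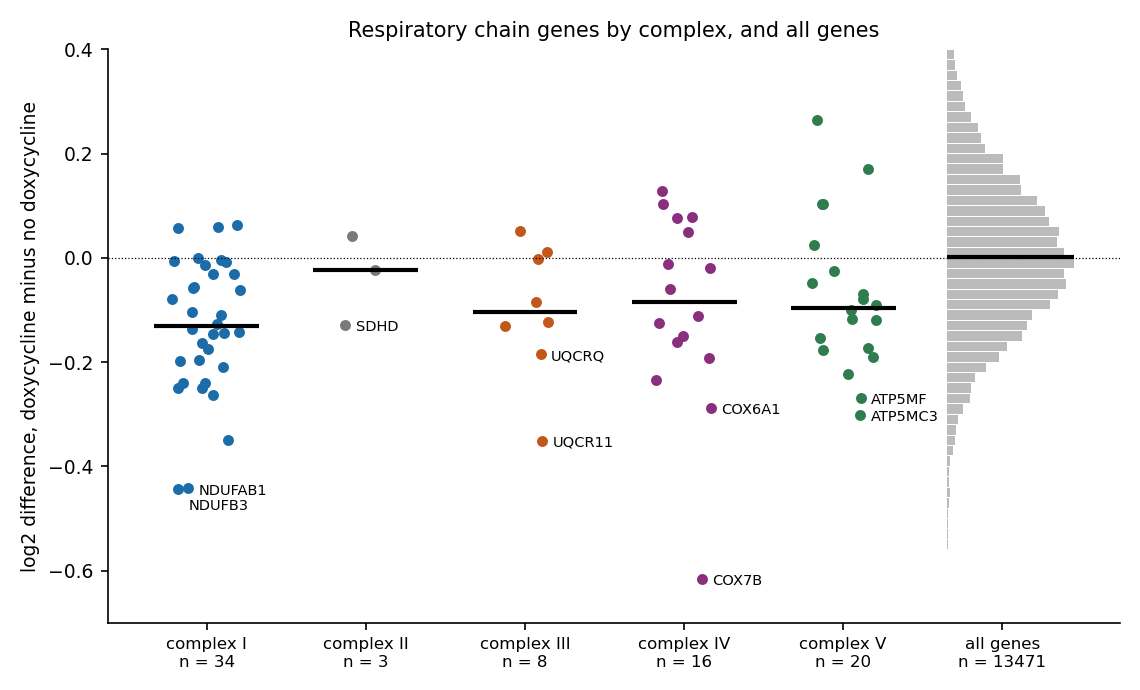
Log2 difference (doxycycline minus no doxycycline, vertical axis) of each respiratory chain gene past the floor, 1 point a gene, by complex, with a horizontal histogram of all 13471 genes compared at the right. Black lines are medians, which lie at -0.13, -0.02, -0.10, -0.09 and -0.10 in complexes I to V and near 0 for all genes; 243 genes outside the axis range are not drawn.

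All genes compared were put in 4 equal bins of mean level, and 55 of the 81 members fell in the brightest. Within that bin the members' median difference was -0.12, against -0.0012 for all genes. In the next bin down, the 14 members had a median of -0.12, against 0.0080 for all genes, and in the one below it the 7 members had a median of -0.11, against 0.0056. In the dimmest bin the 5 members had a median of 0.05, against 0 for all genes. The members' median was below that of all genes in each bin but the dimmest.

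Complex I, the NADH dehydrogenase, had the lowest median of the 5 complexes as counted here; without isoforms, paralogues and non-subunits, complex IV was lower, at -0.15. Of the 34 complex I members, 30 were lower, 3 were higher and 1 was equal, with a median of -0.13, and 4 were at least 1.2-fold lower. NDUFB3, a supernumerary subunit of the membrane arm, stood at 7.10 with doxycycline and 7.55 without, differing by -0.44. NDUFAB1, the mitochondrial acyl carrier protein, which also serves mitochondrial fatty acid synthesis, stood at 9.74 with doxycycline and 10.18 without, again differing by -0.44. Only 73 of the 13471 genes were as low as NDUFB3 or lower, and 76 as low as NDUFAB1. NDUFA2, a supernumerary subunit of the NADH-binding module, stood at 8.76 with doxycycline and 9.11 without, differing by -0.35. NDUFB1, of the membrane arm, stood at 7.48 with doxycycline and 7.75 without, differing by -0.26.

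These 4 genes were followed by 4 further subunits of the membrane arm with nearly equal differences. NDUFA3 stood at 9.98 with doxycycline and 10.23 without (-0.25), and the X-linked NDUFA1 at 10.13 with doxycycline and 10.38 without (-0.25). NDUFB10 stood at 8.73 with doxycycline and 8.97 without (-0.24). NDUFA13, also known as GRIM-19, stood at 9.23 with doxycycline and 9.47 without (-0.24). Each of the 4 was just short of 1.2-fold lower, and between 630 and 723 of all genes were as low or lower. NDUFA5, of the coenzyme Q-binding module, was lower too, at 11.13 with doxycycline and 11.31 without (-0.18), while NDUFB5 of the membrane arm was nearly level, at 11.19 with doxycycline and 11.20 without.

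The core subunits of complex I, those kept from bacteria to humans, stayed close to 0. NDUFV1, which binds the flavin that accepts electrons from NADH, stood at 11.32 with doxycycline and 11.27 without, differing by 0.06. NDUFS1, the large iron-sulphur subunit next to it, stood at 10.44 with doxycycline and 10.38 without, also 0.06. NDUFV2, their iron-sulphur partner, stood at 10.32 with doxycycline and 10.38 without, differing by -0.06. In the coenzyme Q-binding module, NDUFS3 stood at 10.47 with doxycycline and 10.53 without (-0.06). NDUFS7, which holds the last iron-sulphur cluster of the chain, stood at 9.01 with doxycycline and 9.02 without (-0.0050). NDUFS8, also an iron-sulphur subunit, stood at 9.32 in both samples (-0.0061). A further NDUFV2 probe set stood at 10.30 with doxycycline and 10.39 without (-0.09), but sits by number among genes of chromosome 19 rather than 18. At the probe sets compared, all 6 measured core subunits lay between -0.06 and 0.06, inside the robust SD of genes of like level. Being inside this SD was not particular to the core. Several supernumerary subunits lay inside it too, among them NDUFB2 (-0.14), NDUFS6 (-0.11) and NDUFB11 (-0.08). The share of all genes inside it was not counted.

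The 28 supernumerary subunits, NDUFAB1 included, had a median of -0.15, against -0.0055 for the 6 core subunits, a grouping made after the members' values had been seen. Of the 28, 26 were lower, 1 was higher and 1 was equal, and all 4 complex I genes at least 1.2-fold lower were among them. By module, the 18 membrane-arm subunits had a median of -0.17 with 17 lower, the 7 supernumerary subunits of the NADH-binding module a median of -0.11 with 6 lower, and the 2 of the coenzyme Q-binding module, NDUFA5 and NDUFA9, were both lower. NDUFB8, of the membrane arm, was the supernumerary subunit that was higher, at 9.34 with doxycycline and 9.27 without (0.06). NDUFS4, which is often mutated in Leigh syndrome, had the same value of 6.51 in both samples at its brighter probe set. Its other probe set was under the floor, at 5.20 with doxycycline and 4.86 without. The 2 probe sets of NDUFB4 held the same values, 8.90 with doxycycline and 8.92 without. Such exact ties occurred in 115 of the 13471 genes. The difference between core and supernumerary subunits could not be tested with 1 sample in each group.

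**Figure D2:**
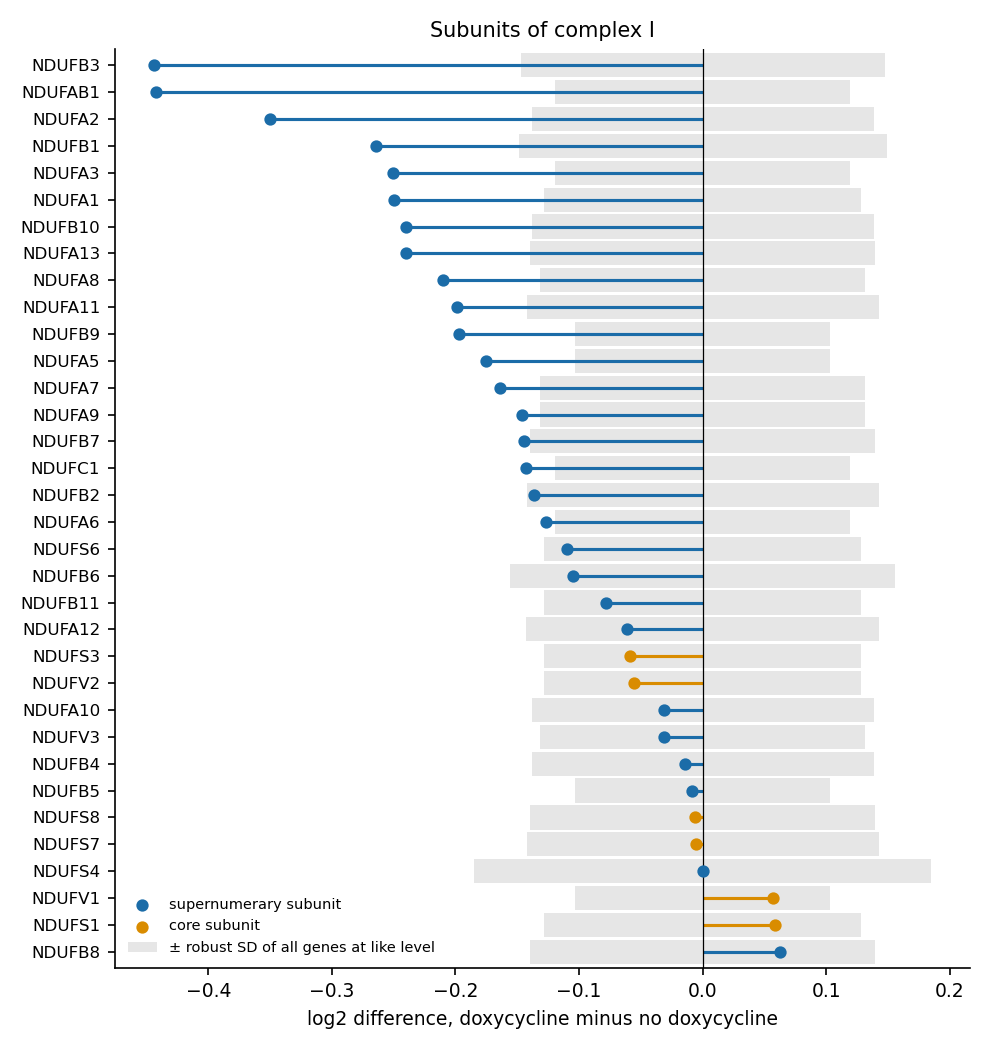
Log2 difference (doxycycline minus no doxycycline, horizontal axis) of the 34 measured subunits of complex I, ordered from lowest at the top, with core subunits in orange and supernumerary subunits in blue. Grey bars show plus and minus 1 robust SD of all genes at a like level. The 6 core subunits lie between -0.06 and 0.06, inside their bars, and several supernumerary subunits lie inside theirs too.

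Complex II, succinate dehydrogenase, which also works in the tricarboxylic acid cycle, showed no shared direction. SDHA, the flavoprotein subunit that oxidises succinate, stood at 11.46 with doxycycline and 11.48 without, differing by -0.02. SDHC and SDHD, which anchor the enzyme in the membrane, had 2 probe sets each that did not move alike. At its brighter probe set SDHC stood at 9.88 with doxycycline and 9.84 without (0.04), and at its dimmer one at 7.99 with doxycycline and 7.79 without (0.20). SDHD stood at 10.39 with doxycycline and 10.51 without (-0.13) at the brighter one, and at 9.28 with doxycycline and 9.24 without (0.03) at the dimmer one.

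The numbering of these probe sets bears on which value to read. All 20 named neighbours by number of the brighter SDHD probe set belong to chromosome 1, whereas SDHD itself lies on chromosome 11. All 20 neighbours of the brighter SDHC probe set belong to chromosome 17, whereas SDHC lies on chromosome 1. The dimmer probe sets sit among genes of the right chromosome. Such a mismatch was seen for 1.81% of the 19426 probe sets with 1 symbol and a known chromosome. Which locus the brighter probe sets read was not tested, so the values for SDHC and SDHD are uncertain. The median of complex II was -0.02 with the brighter probe sets and 0.03 with those in place for the gene's chromosome. With the brighter probe sets after a further quantile normalization it was 0.0069, so its sign depended on the processing.

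In complex III, the cytochrome c reductase, the median was -0.10, and 6 of the 8 genes had a difference below 0. UQCR11 stood at 8.59 with doxycycline and 8.94 without, differing by -0.35, and it was the only one of the 8 members at least 1.2-fold lower. UQCRQ stood at 9.06 with doxycycline and 9.24 without (-0.18), and UQCR10 at 9.17 with doxycycline and 9.30 without (-0.12). UQCRB, near the floor, stood at 6.62 with doxycycline and 6.71 without (-0.08). All 4 encode small supernumerary subunits.

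CYC1, the haem-bearing cytochrome c1 and the measured catalytic subunit of complex III, stood at 11.10 with doxycycline and 11.23 without (-0.13). UQCRC1 and UQCRC2, the large core proteins, which resemble a mitochondrial processing peptidase, were not lower. UQCRC1 stood at 10.26 with doxycycline and 10.25 without (0.01), and UQCRC2 at 12.29 with doxycycline and 12.23 without (0.05). The hinge protein gene UQCRH was level at its own probe set, at 8.93 in both samples (-0.0030). A brighter probe set that also names UQCRHL and GNA13 stood at 11.92 with doxycycline and 12.10 without (-0.17). UQCRHL is nearly identical to UQCRH in sequence, so which of them this signal came from was not tested.

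Complex IV, cytochrome c oxidase, held the member with the largest difference. COX7B, a small X-linked subunit needed for assembly of the enzyme, stood at 9.21 with doxycycline and 9.82 without, differing by -0.62 or 1.53-fold lower. Only 8 of the 13471 genes were as low or lower, COX7B included. COX6A1, a subunit near the interface of the enzyme's dimer, stood at 11.34 with doxycycline and 11.63 without (-0.29), and its further probe set gave the same difference, at 11.18 with doxycycline and 11.47 without (-0.29). That further probe set sits by number among genes of chromosome 6, whereas COX6A1 lies on chromosome 12, and what it reads was not tested. COX8A stood at 10.00 with doxycycline and 10.24 without (-0.24), and COX5A, which is known to bind a thyroid hormone, at 10.55 with doxycycline and 10.75 without (-0.19).

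COX7C, COX7A2 and COX5B were lower by less. COX7C stood at 9.58 with doxycycline and 9.74 without (-0.16), COX7A2 at 9.95 with doxycycline and 10.10 without (-0.15), and COX5B at 9.35 with doxycycline and 9.48 without (-0.12). COX6B1, which faces the intermembrane space, stood at 9.60 with doxycycline and 9.66 without (-0.06). COX4I1, the general form of the largest nuclear subunit, was level at 9.06 with doxycycline and 9.08 without (-0.02). COX6C and NDUFA4 were higher, with COX6C at 10.35 with doxycycline and 10.28 without (0.08) and NDUFA4 at 9.55 with doxycycline and 9.45 without (0.10). Of the 11 general subunits, 9 were lower, with a median of -0.15.

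Isoforms and relatives of complex IV subunits were mixed in direction. Of the 4 tissue isoforms past the floor, NDUFA4L2 included, 2 were lower and 2 higher, with a median of 0.02. COX4I2, the lung-enriched isoform of COX4I1, stood at 6.75 with doxycycline and 6.62 without (0.13). COX6A2, the heart and muscle isoform of COX6A1, stood at 7.98 with doxycycline and 8.09 without (-0.11). COX7A1, the muscle isoform of COX7A2, was at the floor, at 6.05 with doxycycline and 6.004 without (0.05). COX7A2L, which joins complexes III and IV into supercomplexes, stood at 9.82 with doxycycline and 9.74 without (0.08), and NDUFA4L2, a hypoxia-induced relative of NDUFA4, at 7.05 with doxycycline and 7.06 without. The testis-enriched COX6B2 stood at 4.81 with doxycycline and 4.80 without, COX7B2 at 4.32 with doxycycline and 4.57 without, and COX8C at 4.14 in both. Over the 16 members of complex IV past the floor the median was -0.09 with 11 lower. Without the isoforms and COX7A2L it was -0.15.

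**Figure D3:**
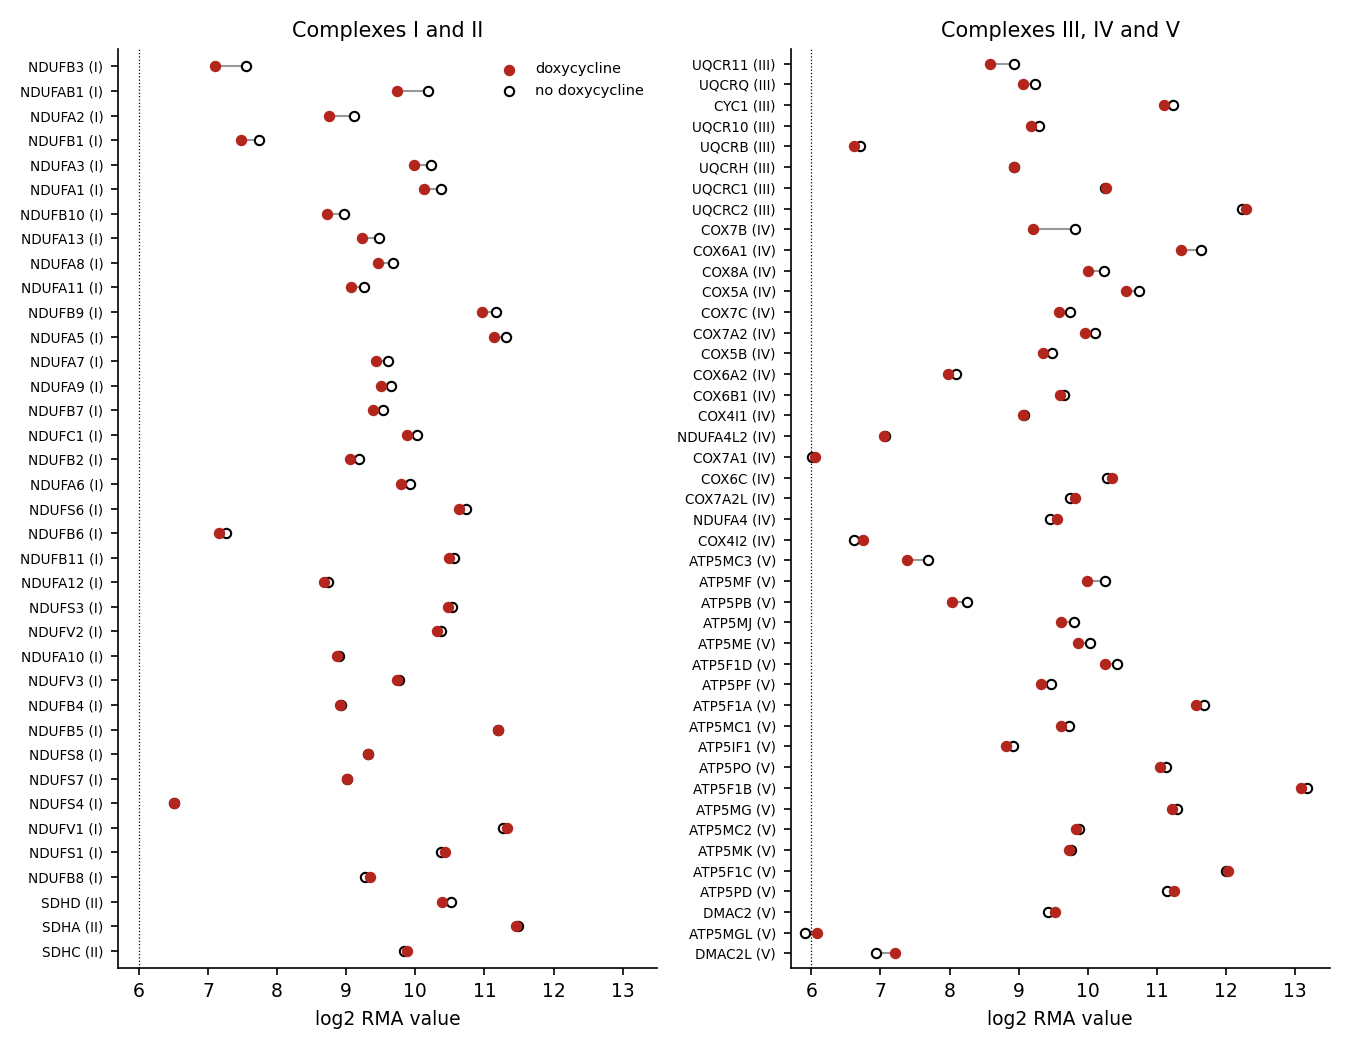
Log2 RMA value (horizontal axis) of each of the 81 respiratory chain genes past the floor, with the doxycycline sample as filled red points and the sample without doxycycline as open points, ordered within each complex from the lowest difference. The dotted line is the floor of 6; the longest gap is that of COX7B, at 9.21 with doxycycline and 9.82 without.

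Complex V, the ATP synthase, was lower in its membrane sector and in most of its head. In the c ring, which turns as protons pass, 3 genes encode the same mature protein behind different targeting peptides. ATP5MC3 stood at 7.39 with doxycycline and 7.69 without (-0.30), ATP5MC1 at 9.61 with doxycycline and 9.73 without (-0.12), and ATP5MC2 at 9.83 with doxycycline and 9.87 without (-0.05). ATP5MC3 was the lowest member of complex V. Of the small membrane subunits, ATP5MF stood at 9.98 with doxycycline and 10.25 without (-0.27), ATP5MJ at 9.61 with doxycycline and 9.80 without (-0.19) and ATP5ME, which helps the enzyme to form dimers, at 9.86 with doxycycline and 10.04 without (-0.18). ATP5MG and ATP5MK were lower by less than 0.10, and all 5 measured genes of this group were lower, with a median of -0.18. ATP5MK had a second probe set at 8.89 with doxycycline and 8.96 without (-0.08), against -0.02 at the brighter one, which sits by number among genes of the X chromosome rather than of chromosome 10.

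In the catalytic head, ATP5F1D, the delta subunit, stood at 10.25 with doxycycline and 10.42 without (-0.17), and ATP5F1A, the alpha subunit, at 11.57 with doxycycline and 11.69 without (-0.12). ATP5F1B, the catalytic beta subunit, stood at 13.09 with doxycycline and 13.17 without (-0.08). ATP5F1C, the gamma subunit that forms the rotating shaft, was not lower, at 12.02 with doxycycline and 11.998 without (0.02). In the peripheral stalk, which holds the head still, ATP5PB stood at 8.03 with doxycycline and 8.25 without (-0.22), ATP5PF at -0.15 and ATP5PO at -0.09 in difference, while ATP5PD was higher, at 11.25 with doxycycline and 11.15 without (0.10). ATP5IF1, the inhibitor that stops the enzyme from running backwards, stood at 8.81 with doxycycline and 8.91 without (-0.10).

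The other higher members counted with complex V are not established subunits of it. DMAC2L, formerly ATP5S, stood at 7.21 with doxycycline and 6.94 without (0.26). DMAC2, formerly ATP5SL and known as an assembly factor of complex I and counted in that list too, stood at 9.53 with doxycycline and 9.43 without (0.10). ATP5MGL, a relative of ATP5MG, stood at 6.09 with doxycycline and 5.91 without (0.17). Over all 20 members the median was -0.10 with 15 lower, and 2, ATP5MC3 and ATP5MF, were at least 1.2-fold lower.

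Respiratory chain genes tend to be short, and over all genes the difference followed genomic span weakly. The median span in RefSeq was 8.92 kb for the members and 23.98 kb for all genes compared. Spearman's rho between span and difference was 0.18 over 13455 genes and 0.22 over the 81 members, a description across genes of the same 2 arrays. In the bin of shortest genes among 4 equal bins, up to 8.80 kb, the 40 members had a median of -0.12 with 32 lower, against -0.04 for all genes in that bin, of which 58.9% were lower. In the next bin, up to 23.98 kb, the 28 members had a median of -0.12 with 24 lower, against -0.01 for all genes. In the third bin the 10 members had a median of -0.04, against 0.02 for all genes. In the bin of longest genes the 3 members had a median of -0.03, against 0.04 for all genes, of which 39.6% were lower. The core subunits of complex I had a median span of 8.82 kb and the supernumerary ones 12.6 kb. The part of span in the results was not tested.

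**Figure D4:**
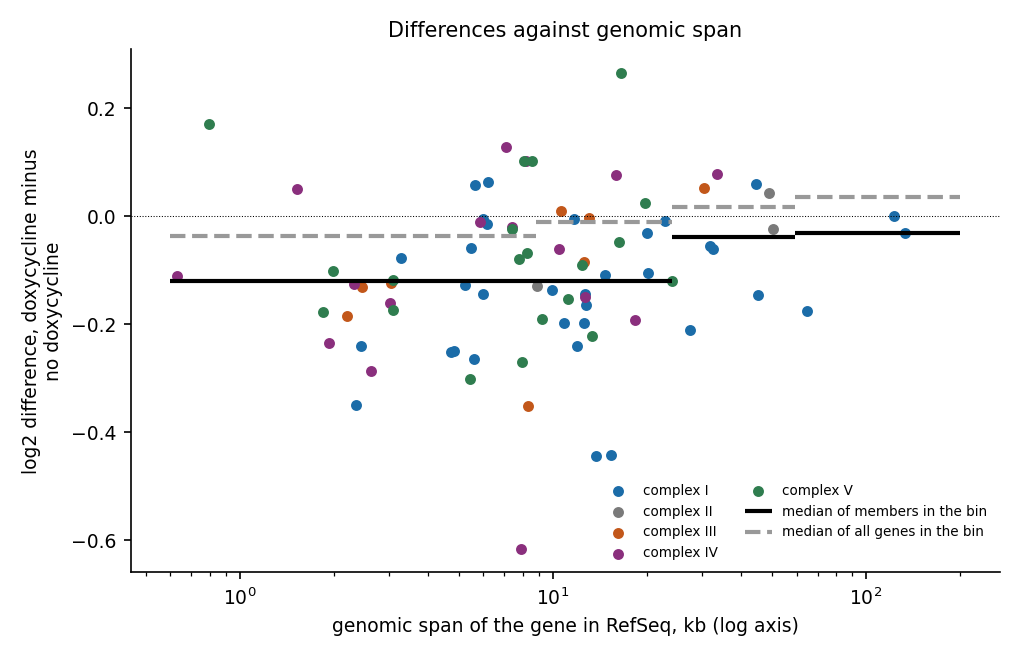
Log2 difference (doxycycline minus no doxycycline, vertical axis) of the 81 respiratory chain genes past the floor against genomic span in kb on a log axis, coloured by complex. Solid black lines are the medians of the members and dashed grey lines the medians of all genes within 4 equal bins of span; in the shortest bin they lie at -0.12 and -0.04.

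Genes that build and feed the respiratory chain did not all share its direction. For scale, 48.8% of all genes compared were lower and 4.05% at least 1.2-fold lower, with a median of 0.00177. Of 18 measured assembly factors of complex I, 12 were higher and 6 lower, with a median of 0.04. The median was -0.13 for the 34 subunits of complex I, -0.15 for the supernumerary ones and -0.0055 for the core ones. NDUFAF1, an early factor for the membrane arm, stood at 9.09 with doxycycline and 8.81 without (0.28), and its partner TIMMDC1 at 10.83 with doxycycline and 10.55 without (0.28). NDUFAF4 went the other way, at 10.02 with doxycycline and 10.48 without (-0.46). Of 35 assembly factors of complexes II to V, 28 were lower, with a median of -0.09. Among them SDHAF3 and SDHAF4, which both serve succinate dehydrogenase, differed by -0.31 and 0.31, and UQCC1, a factor for complex III, by -0.24.

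Mitochondrial ribosomal proteins, which translate the mitochondrially encoded subunits, had a median of -0.11 with 66 of 73 lower and 7 at least 1.2-fold lower, a shift of the same size as that of the respiratory chain genes. The lowest were MRPS12 at -0.47, MRPS17 at -0.44 and MRPL41 at -0.33. By contrast, 12 enzymes of the tricarboxylic acid cycle had a median of -0.0031 with 6 lower and 6 higher. IDH2, an NADP-dependent isocitrate dehydrogenase, was the furthest from 0 at 0.24, followed by DLD at 0.11 and IDH3B at -0.11. Cytochrome c and the coenzyme Q synthesis genes had a median of 0.02 with 5 of 15 lower, and the somatic cytochrome c gene CYCS was among the lower, at 10.20 with doxycycline and 10.35 without (-0.15). COQ8A stood at 0.19 and COQ3 at -0.15 in difference.

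The 7 other enzymes that pass electrons to coenzyme Q had a median of -0.0087. Their largest difference was that of PRODH, proline dehydrogenase, a dim gene at 6.18 with doxycycline and 6.66 without (-0.48), ahead of DHODH and ETFA at -0.12 each. Of 10 transcriptional regulators of respiratory genes past the floor, 8 were lower, with a median of -0.05. PPARGC1B, a coactivator of mitochondrial genes, stood at 8.15 with doxycycline and 8.44 without (-0.29), and MYC at 11.16 with doxycycline and 11.33 without (-0.17). GABPB1, the partner of GABPA, was higher, at 9.59 with doxycycline and 9.36 without (0.23). PPARGC1A was below the floor in both samples. None of these differences between lists could be tested with 1 sample in each group.

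**Figure D5:**
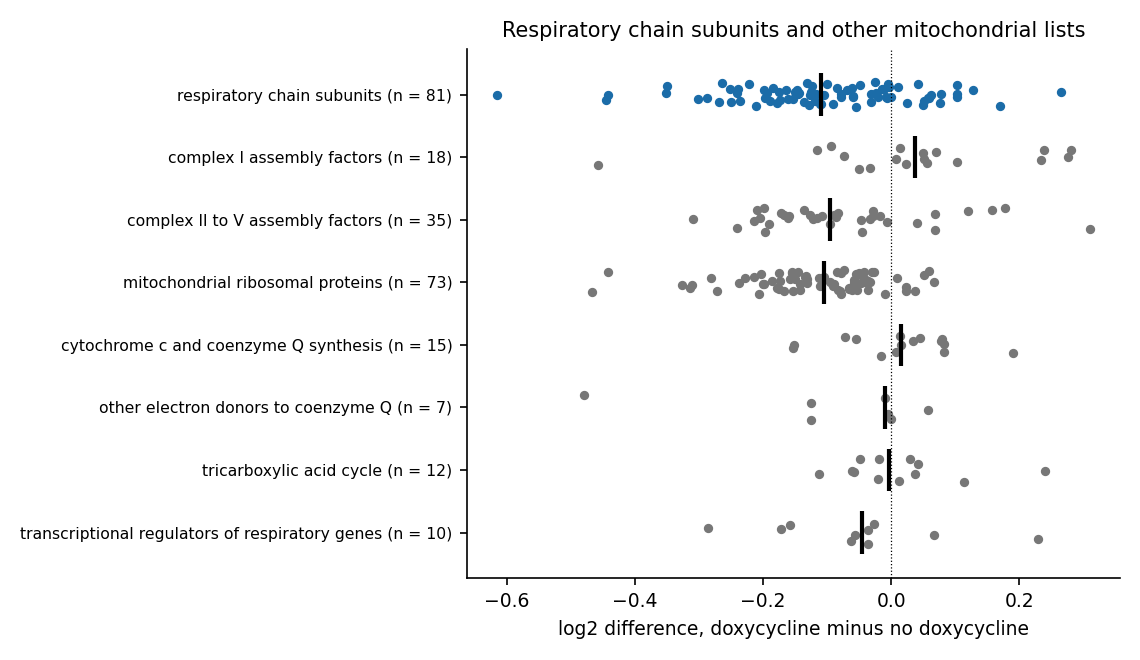
Log2 difference (doxycycline minus no doxycycline, horizontal axis) of the 81 respiratory chain genes past the floor in blue and of the genes of 7 other mitochondrial lists in grey, 1 point a gene, with black lines at the medians. The medians are -0.11 for the respiratory chain genes, 0.04 for complex I assembly factors, -0.11 for mitochondrial ribosomal proteins and -0.0031 for the tricarboxylic acid cycle.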

How the data were processed

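Per the labels' protocols, total RNA of both cultures was column-purified, 0.3 µg was labelled (RNA integrity number 10 in both) and hybridised to 1 array each. Per the submitters' processing notes, the deposited values are log2 values that the authors made with Affymetrix Expression Console 1.1.1 and RMA, which corrects background, quantile-normalizes and summarises probe sets by median polish. This step hides any shift common to every gene and shrinks differences of dim probe sets. No label states the log base, which rests on RMA and on the range of 1.61 to 14.6; the design text names another array type than the platform annotation, which was followed here. The annotation's genome build was not used here.

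Of 33297 probe sets, 19460 had 1 symbol, 1754 several and 12083 none, and 19429 of the 19460 matched RefSeq (GRCh38.p14) by Entrez ID. A gene took its brightest probe set with 1 symbol (18417 genes), and genes whose higher value was under 6 were left out (13471 kept). Levels of different probe sets are not compared. Robust SDs were taken in 20 bins of mean level. No test was made, and the number of arrays limits the precision. Genes named were all of complex II, the 8 largest differences and 3 brightest genes of each other complex, the complex I core, isoform sets, members with a further probe set, and 3 genes of each other list; NDUFB8, the remaining general complex IV and V subunits, DMAC2 and erythroid markers were added after their values were seen. The members, lists and sizes (1.2-fold and 1.5-fold) were chosen with earlier results of these data known. The 3 motif cores, the rule for the promoters shown (the second one tried) and the pooling of complex I into core and supernumerary subunits were set after values had been seen. The steps were tested on simulated data. Alternatives were the mean over probe sets, probe sets with several symbols, centring, quantile normalization, a loess trend (span 0.3), other floors, leaving out the largest member or the isoforms, and NDUFA4 in complex I. Work was done in Python 3.11.15 with pandas 2.3.3, numpy 2.4.6, statsmodels 0.14.6 and scipy 1.17.1.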

Additional observations from a re-analysis of the deposited data

How the results depend on the processing

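The results were recomputed under 12 alternatives, of which 1, the probe set in place for the gene's chromosome, was chosen after seeing the data. A median was taken as moved when it differed by 0.05 or more on the log2 scale, a size also set after seeing the data. The median of all members stayed between -0.12 and -0.10, that of complex I between -0.14 and -0.12, of complex III between -0.12 and -0.10, and of complex V between -0.12 and -0.08. The share of members lower with doxycycline lay between 76.5% (quantile normalization) and 84.9% (without isoforms, paralogues and non-subunits), while that of all genes lay between 48.6% and 52.6%. The complex I core median lay between -0.02 and -0.0055 and the supernumerary median between -0.16 and -0.14. Complex II had a median of 0.035 with probe sets in place for the gene's chromosome, by the choice of probe set for SDHC (0.20) and SDHD (0.03). Its median was also above 0 after quantile normalization, at 0.0069. The complex IV median ranged more widely, from -0.15 without isoforms, paralogues and non-subunits to -0.06 without COX7B or with no floor. The count at least 1.2-fold lower stayed at 9 except with a floor of 8, where it was 6 since NDUFB3, NDUFB1 and ATP5MC3 were left out, and without COX7B, where it was 8. The count at least 1.2-fold higher became 0 after centring, after quantile normalization, with a floor of 8 and without isoforms, paralogues and non-subunits, since DMAC2L was then under that size or left out. The count at least 1.5-fold lower became 0 without COX7B. Centring set the 2 sample medians over all measured genes equal, those under the floor included, and shifts all differences by -0.0115. It moved the median of the genes compared from 0.00177 to -0.0097, and their share lower from 48.8% to 52.6%. No paired analysis was possible because each group held 1 sample, and for the same reason no replicate could be left out. Differences of genes near the floor, such as UQCRB, COX7A1 and ATP5MGL, are limited by their dim signal.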

Other observations

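Relatives of respiratory chain genes that met no rule of membership gave further values. EMC8, formerly COX4NB, is a subunit of a membrane protein insertase and the next protein-coding gene to COX4I1 on chromosome 16. It stood at 8.39 with doxycycline and 8.73 without, differing by -0.35, whereas its neighbour COX4I1 differed by -0.02. Among pseudogenes, ATP5F1EP2, a copy of the epsilon subunit gene of ATP synthase, stood at 8.95 with doxycycline and 9.17 without (-0.22), and UQCRBP1 at 7.39 with doxycycline and 7.29 without (0.11). The pseudogenes of SDHA shared probe sets with each other, and with SDHA itself in part, and these differed by 0.03 to 0.05.

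Probe sets that name several genes also covered members that had no other. NDUFC2, whose probe set also names a read-through with KCTD14, stood at 10.23 with doxycycline and 10.32 without (-0.08), and ATP5F1E, the epsilon subunit of ATP synthase, at 9.04 with doxycycline and 9.11 without (-0.07). NDUFS5, in a probe set that also names RPL10, stood at 11.99 with doxycycline and 12.13 without (-0.13). All of these, with UQCRHL at -0.17, were lower with doxycycline, and which gene each signal came from was not tested.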
